A study of Mus musculus with 6 samples.

Results

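The vascular endothelium is represented here by 10 marker genes, Pecam1, Cdh5, Kdr, Tek, Esam, Egfl7, Flt1, Tie1, Eng and Emcn, measured by RNA-seq in primary mouse embryonic fibroblasts (pMEFs). The genes were chosen by name as markers of the lineage, with earlier results of these same counts known, including both their levels and their differences between genotypes. For that reason every value that sets the genotypes against each other for these 10 genes is given as a description, without a printed p-value. Counts of these genes past a p threshold are listed beside the share of all genes, with nothing read from them. Of the 10 genes, 9 were matched among the 17512 genes of the count table and 8 passed the filter on low counts that left 14773 genes for testing. Emcn was matched but did not pass, and no row matched Tie1, which was not analysed here.

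HAT1 is a type B histone acetyltransferase that acetylates newly made histone H4, and the study asked whether chromatin that closes in its absence does so because transcription is lost. The 3 HAT1 WT lines (36, 47 and 78) and 3 HAT1 KO lines (33, 41 and 72) share the strain background C57bl6, and all were grown in DMEM with serum. They were derived from mid-gestation embryos from which internal organs had been removed, so the starting tissue held vessels and blood cells as well as mesenchyme. The knockout is constitutive, so every cell type in a HAT1 KO culture carries it.

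Blood vessels are lined by endothelial cells, which carry vascular endothelial growth factor (VEGF) receptors, angiopoietin receptors of the TIE family and a set of junction proteins that seal one cell to the next. The products of Kdr and Flt1 are VEGF receptors, the former the main signalling receptor and the latter a high-affinity receptor that also exists as a soluble decoy. Tek and Tie1 make up the TIE family, Tek being the receptor for angiopoietins. Cdh5, Esam and Pecam1 encode VE-cadherin, an immunoglobulin-like junction molecule and CD31, and Emcn encodes a sialomucin of capillary and venous surfaces. Egfl7 encodes a secreted protein of the vessel wall, and Eng a co-receptor for ligands of the transforming growth factor β (TGFβ) family. Pecam1 is also carried by platelets and many leukocytes, and Eng by mesenchymal cells including fibroblasts. The other 8 were grouped here by name as endothelium-restricted, and whether other cells of these cultures carried them was not tested. Cultured fibroblasts are not expected to carry VE-cadherin.

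Depth was 67720628 to 98786746 assigned counts per line. Hat1 itself had 20.2 ± 2.80 CPM (SD, n = 3; counts per 1000000 assigned counts, with library sizes corrected by TMM, edgeR's trimmed-mean scaling) in HAT1 WT and 10.2 ± 0.146 CPM in HAT1 KO, so transcripts of the locus were still counted in the knockout lines. HAT1 KO line 72 stood apart, with a mean Pearson r of 0.965 with the other lines over the log2 CPM of all tested genes, against 0.979 to 0.983 for the other 5, and values that rest on it are given with and without it. Reads from the Y chromosome also differed between the genotypes, and 4 genes of the Y chromosome (Uty, Eif2s3y, Kdm5d and Ddx3y) together held 13788 and 12841 counts in HAT1 WT lines 36 and 47, 231 in HAT1 WT line 78, and 4 to 8 in the HAT1 KO lines. Taken as a sum, the fibroblast markers were abundant in every line, although single genes of the list were far lower than the collagen genes. Col1a1, a chain of type I collagen, stood at 5303 CPM per kb of exon in HAT1 WT, and the 13 fibroblast markers together at 60180 to 93967 CPM.

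The 250 bases upstream of the annotated start are shown for the 4 most abundant marker genes that have 1 window in the table used, to set the receptors side by side. These are RefSeq sequences of GRCm38.p6, written 5′ to 3′ along each gene. Capitals mark AGGAAG or its complement CTTCCT. These letters hold GGAA or its complement TTCC, the shorter core recognised by ETS-family factors such as FLI1 and ERG. Only the full AGGAAG was searched, on both strands, and this motif was picked after the sequences had been read.
Flt1: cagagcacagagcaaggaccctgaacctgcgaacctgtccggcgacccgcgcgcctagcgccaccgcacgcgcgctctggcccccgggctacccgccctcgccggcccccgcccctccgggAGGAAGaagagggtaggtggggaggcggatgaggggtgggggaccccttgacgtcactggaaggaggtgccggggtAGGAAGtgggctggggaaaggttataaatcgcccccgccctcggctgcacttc
Eng: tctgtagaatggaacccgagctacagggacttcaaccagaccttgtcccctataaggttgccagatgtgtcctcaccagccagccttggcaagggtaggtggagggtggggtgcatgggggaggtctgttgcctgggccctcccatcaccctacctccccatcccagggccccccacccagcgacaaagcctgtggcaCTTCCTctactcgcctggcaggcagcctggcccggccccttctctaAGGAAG
Kdr: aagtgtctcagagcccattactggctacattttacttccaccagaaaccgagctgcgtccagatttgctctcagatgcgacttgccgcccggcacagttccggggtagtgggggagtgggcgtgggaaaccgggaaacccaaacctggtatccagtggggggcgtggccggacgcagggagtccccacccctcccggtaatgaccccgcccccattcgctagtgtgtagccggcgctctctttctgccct
Tek: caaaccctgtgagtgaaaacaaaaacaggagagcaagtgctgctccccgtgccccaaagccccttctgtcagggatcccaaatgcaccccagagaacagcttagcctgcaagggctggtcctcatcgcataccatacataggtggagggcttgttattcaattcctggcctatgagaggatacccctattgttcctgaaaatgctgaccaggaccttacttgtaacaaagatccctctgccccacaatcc
The windows are chr5:147726012-147726261 on the minus strand for Flt1, chr2:32646345-32646594 on the plus strand for Eng, chr5:75978456-75978705 on the minus strand for Kdr and chr4:94739039-94739288 on the plus strand for Tek. Flt1 held 2 matches, which begin 129 and 53 bases before the start, and Eng held 2, at 52 and 6 bases. Kdr and Tek held no match to the full letters, although both windows hold the shorter core. Of the 9 windows of the 7 marker genes in the table, 6 held a match, beside 29.5% of the 32851 windows of all genes. Among the windows not printed, Emcn, the least abundant marker gene counted, held 2 matches and Tie1 held 1. The windows of Egfl7 held 3, 1 and 0. A match of these letters is a description of the window and says nothing of binding in these cells.

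Measured per kilobase of exon, the marker genes of HAT1 WT pMEFs spanned 652-fold, from Flt1 to Emcn. The gene bodies below are those of GENCODE M21 on GRCm38, and each level is the CPM divided by the length of the gene's merged exons. Flt1 (chr5:147561604-147726011, minus strand) led with 11.3 ± 1.65 CPM per kb (SD, n = 3), which placed it at the 79.0th percentile of the 17512 genes. Eng (chr2:32646595-32682669, plus strand) followed with 4.35 ± 0.637 CPM per kb at the 59.9th percentile. Both lay above the median tested gene, at 3.92 CPM per kb, and the other 7 lay below it. Flt1, of the endothelium-restricted group, was 2.59-fold above Eng and 78.5-fold above Cdh5 per kilobase in HAT1 WT. Which cells carried Flt1 was not tested.

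The remaining receptors were lower. Kdr (chr5:75932827-75978458, minus strand) stood at 1.05 ± 0.0706 CPM per kb and Tek (chr4:94739289-94874976, plus strand) at 0.232 ± 0.0517 CPM per kb in HAT1 WT. Between them came Egfl7 (chr2:26580014-26593120, plus strand), with 0.488 ± 0.0267 CPM per kb. The gene body of Egfl7 overlaps that of Gm20532 on the same strand and that of Agpat2 on the other. Eng overlaps Gm47291 on the same strand and Fpgs on the other, and Cdh5 overlaps Gm29682 on the other strand. The library kit does not mark the strand, so strand cannot separate reads of genes on opposite strands. Whether the exons of these pairs overlap, and so whether they share reads, was not examined.

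The junction and surface genes closed the order. Cdh5 (chr8:104101625-104144511, plus strand) stood at 0.144 ± 0.0288 CPM per kb, Pecam1 (chr11:106654217-106750628, minus strand) at 0.0951 ± 0.0124 CPM per kb and Esam (chr9:37528078-37538319, plus strand) at 0.0497 ± 0.00966 CPM per kb. Emcn (chr3:137341067-137432185, plus strand) was lowest, at 0.0173 ± 0.0156 CPM per kb and the 6.5th percentile. Among neighbours in this order only the lines of Tek and Cdh5 overlapped in HAT1 WT. VE-cadherin and CD31, the genes most used to recognise endothelium, were therefore at or under the 20.6th percentile, and the fibroblast receptor gene Pdgfra was 126-fold above Cdh5 per kilobase.

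**Figure D1:**
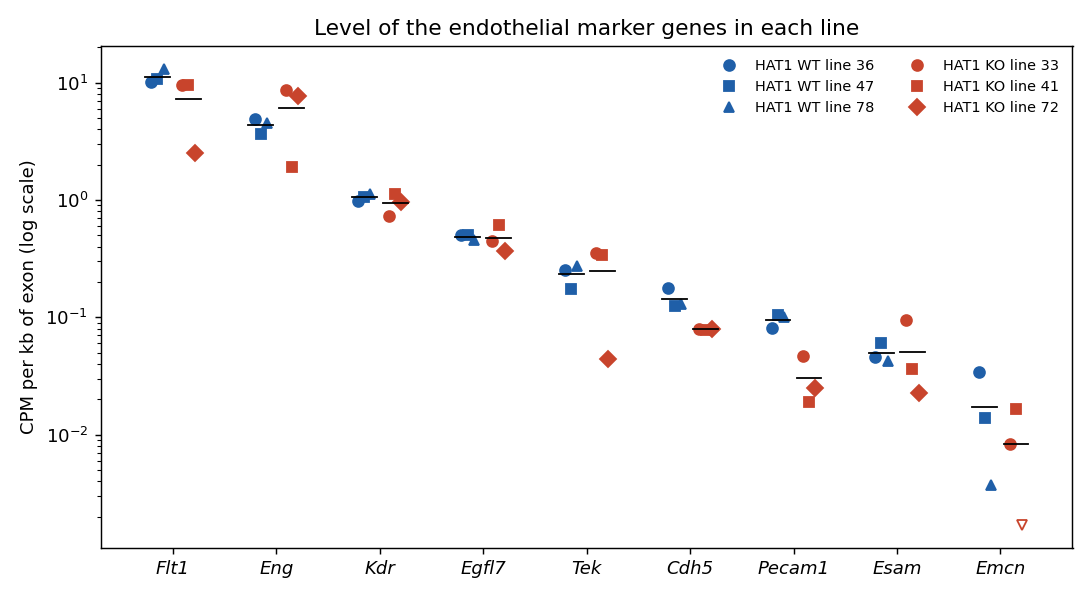
CPM per kilobase of exon (log axis) for the 9 matched marker genes, ordered by their HAT1 WT mean, with 1 point per line and black bars for the mean of 3 lines. Flt1 and Eng lie above the other genes in HAT1 WT, and the open triangle marks HAT1 KO line 72, in which Emcn had no counts.

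In counts, the low members rested on few reads. Cdh5 had 56, 42 and 54 counts in HAT1 WT lines 36, 47 and 78, and 30, 22 and 26 in HAT1 KO lines 33, 41 and 72. Pecam1 had 38, 52 and 62 in HAT1 WT and 26, 8 and 12 in HAT1 KO. Each gene was lower in every HAT1 KO line than in any HAT1 WT line. The 152 summed counts of Cdh5 in HAT1 WT carry an exact 95% Poisson interval of 129 to 178, and the 78 in HAT1 KO one of 61.7 to 97.3. For Pecam1 the sums were 152 (129 to 178) and 46 (33.7 to 61.4). These intervals cover counting error only, and they may be too narrow: all 6 counts of both genes were even, as were 75.1% of all counts from 1 to 10 in the table, and whether both reads of a pair were counted is not given in the sources used here.

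Scaled to depth, Pecam1 was 0.504, 0.646 and 0.627 CPM in HAT1 WT and 0.292, 0.118 and 0.156 CPM in HAT1 KO. The HAT1 KO mean of 0.189 ± 0.0914 CPM was 31.9% of the HAT1 WT mean of 0.592 ± 0.0771 CPM, and the fitted log2 fold change was -1.63 (SE 0.41). Line 41 was lowest and line 33 highest among the HAT1 KO lines. Over all single lines left out, the log2 fold change was -2.10 to -1.39, and it was -1.49 without line 72.

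Cdh5 was 0.742, 0.522 and 0.546 CPM in HAT1 WT and 0.337, 0.325 and 0.337 CPM in HAT1 KO. The HAT1 KO mean was 0.333 ± 0.00663 CPM (SD, n = 3), 55.2% of the HAT1 WT mean of 0.603 ± 0.121 CPM. The HAT1 WT lines were more spread, line 36 being the highest. Its log2 fold change was -0.85 (SE 0.28) with all lines, -0.85 without HAT1 KO line 72 and -0.67 without HAT1 WT line 36.

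By the thresholds of the study, a 1.5-fold difference with an unadjusted p under 0.05, Cdh5 and Pecam1 were the 2 of 8 tested marker genes on the low side in HAT1 KO, beside 4.62% of all tested genes. None of the 8 was on the high side, beside 1.5% of all genes (221 of 14773). With an adjusted p under 0.05 (edgeR quasi-likelihood test, Benjamini-Hochberg), 0 of 8 were lower, beside 0.528% of all genes, and 2 had an unadjusted p under 0.05. In 3 of 8, Cdh5, Pecam1 and Flt1, all HAT1 KO lines lay below all HAT1 WT lines, which was so for 12.4% of all tested genes. None lay wholly above, which was so for 9.59%. Because these genes were selected on this same contrast, nothing is read from these counts. The count of 2 became 1, without Cdh5, with the lane in the model or without HAT1 WT line 36 or any of HAT1 KO lines 33, 41 and 72. Eng came onto the high side without line 41. A bulk library cannot tell fewer endothelial cells in a culture from less of a transcript in each cell.

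**Figure D2:**
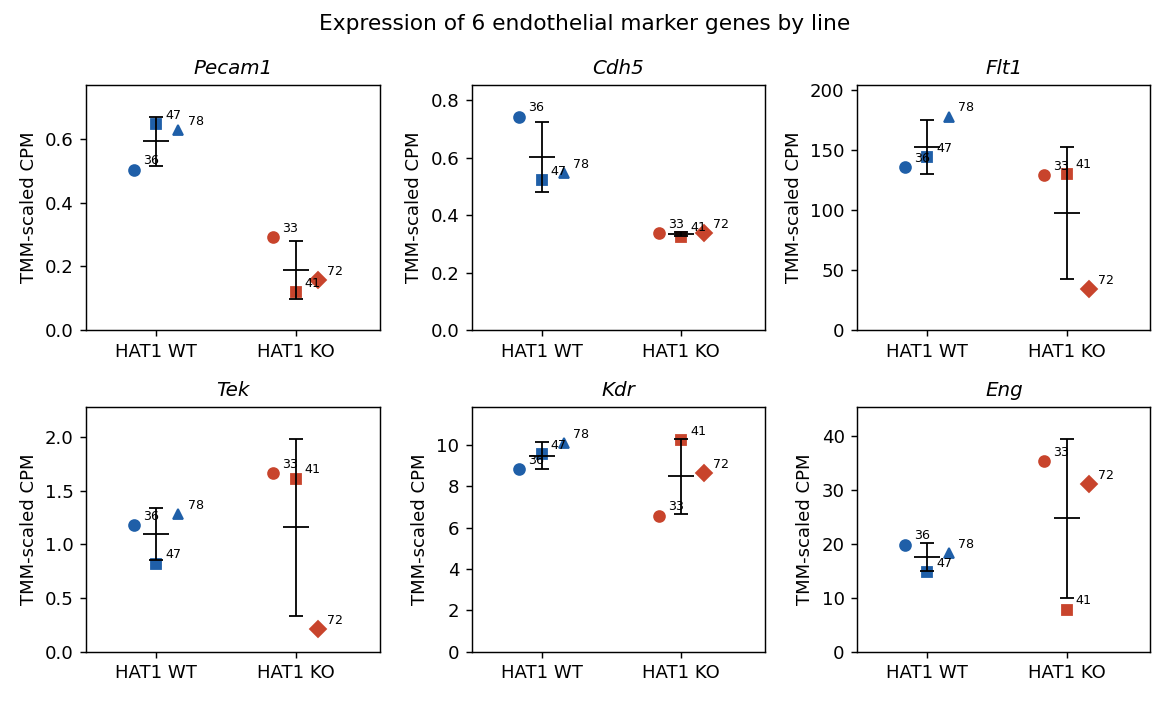
TMM-scaled CPM (linear axes from 0) of Pecam1, Cdh5, Flt1, Tek, Kdr and Eng, with 1 point per line labelled by its number and the mean ± SD of 3 lines in black. Pecam1 and Cdh5 are lower in all 3 HAT1 KO lines, whereas Flt1 and Tek are low in line 72 and Eng is low in line 41.

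Among the VEGF receptors, Flt1 was 135, 144 and 177 CPM in HAT1 WT and 129, 130 and 33.9 CPM in HAT1 KO. HAT1 KO lines 33 and 41 were just under the lowest HAT1 WT line, and line 72 alone was far below. The HAT1 KO mean was 97.5 ± 55.1 CPM against 152 ± 22.2 CPM, a log2 fold change of -0.64 (SE 0.48), which became -0.22 without line 72. At 39334 counts in HAT1 WT and 22870 in HAT1 KO, counting error was small beside this spread.

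Kdr, the other VEGF receptor, was 8.82, 9.55 and 10.1 CPM in HAT1 WT and 6.58, 10.2 and 8.63 CPM in HAT1 KO. The genotypes overlapped, the highest and the lowest value both being HAT1 KO lines, and the log2 fold change was -0.16 (SE 0.18). Kdr was also the steadiest marker gene, with 1.55-fold between the highest and lowest of the 6 lines. The ratio of Flt1 to Kdr per kilobase was 10.1 to 11.8 in HAT1 WT, 13.1 and 8.50 in HAT1 KO lines 33 and 41, and 2.63 in line 72.

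Tek followed Flt1 in line 72. It was 1.18, 0.820 and 1.28 CPM in HAT1 WT and 1.66, 1.61 and 0.207 CPM in HAT1 KO. Lines 33 and 41 were above every HAT1 WT line and line 72 below every other line, which rested on 16 counts there against 66 to 148 elsewhere. The log2 fold change of 0.08 (SE 0.71) became 0.59 without line 72. Tek had the widest range of the tested marker genes, 8.01-fold over 6 lines.

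Eng, which fibroblasts also express, was spread in another way. It was 19.8, 14.8 and 18.3 CPM in HAT1 WT and 35.2, 7.78 and 31.0 CPM in HAT1 KO. HAT1 KO lines 33 and 72 were above every HAT1 WT line and line 41 was below them all, so the mean of 24.7 ± 14.8 CPM describes no line well. The log2 fold change was 0.49 (SE 0.52) with all lines, 0.92 without line 41 and 0.14 without line 33. Line 72 was low in Flt1 and Tek but high in Eng.

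Egfl7 was 1.79, 1.81 and 1.64 CPM in HAT1 WT and 1.59, 2.20 and 1.31 CPM in HAT1 KO, with overlapping lines and a log2 fold change of -0.04 (SE 0.25). Esam had 10, 14 and 12 counts in HAT1 WT and 24, 7 and 5 in HAT1 KO, where the 36 summed counts were the same in both genotypes. Emcn had 14, 6 and 2 counts in HAT1 WT and 4, 6 and 0 in HAT1 KO. The lines of the genotypes overlapped for both genes. Esam had a log2 fold change of 0.06 (SE 0.59), and Emcn was not fitted.

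**Figure D3:**
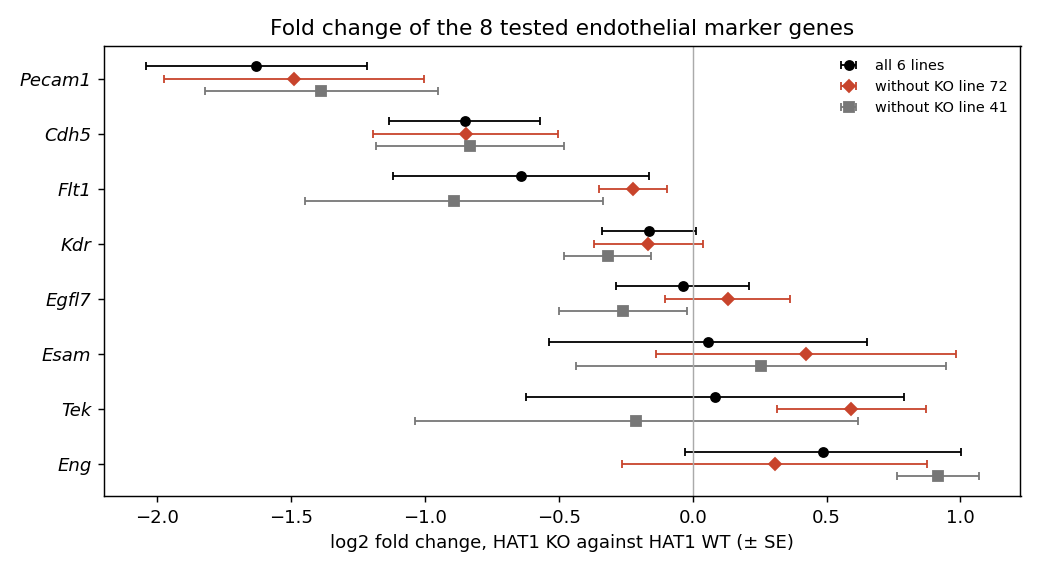
Log2 fold change of HAT1 KO against HAT1 WT (± SE) for the 8 tested marker genes, fitted with all 6 lines (black), without HAT1 KO line 72 (red) and without HAT1 KO line 41 (grey). Pecam1 and Cdh5 stay below 0 in all 3 fits, and Tek moves from 0.08 to 0.59 without line 72.

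The labels place the libraries on 3 sequencing lanes, of which lanes 6 and 7 held both genotypes and lane 8 only HAT1 WT line 36. Within lane 6, HAT1 KO lines 33 and 72 together stood at a log2 ratio of -1.53 to HAT1 WT line 47 for Pecam1 and -0.63 for Cdh5. Within lane 7, HAT1 KO line 41 stood at -2.40 to HAT1 WT line 78 for Pecam1 and -0.75 for Cdh5. Every HAT1 KO line lay below every HAT1 WT line for both genes, so these ratios could only be negative. They do not test for an effect of lane. Without line 72 the lane 6 ratios were -1.15 for Pecam1 and -0.63 for Cdh5. Flt1 stood at -0.82 on lane 6, or -0.16 without line 72, and at -0.45 on lane 7, whereas Eng was 1.17 on lane 6 and -1.23 on lane 7. Neither lane holds enough lines for a test. Y-linked reads, high in HAT1 WT lines 36 and 47 alone, moved with genotype in 5 of the 6 lines, so sex appeared unbalanced between the genotypes, and its part in the values of the marker genes was not tested.

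Endothelium-restricted genes did not move as 1 group with each other or with Eng. Over the 6 lines, on log2 CPM, Pearson's r was 0.81 between Cdh5 and Pecam1 and 0.89 between Tek and Flt1, both lowest in line 72. Over the 5 lines without line 72, the former was 0.77 and the latter -0.31. Cdh5 and Pecam1, which is outside the endothelium-restricted group, were both lower in every HAT1 KO line. Their r repeats that difference, and nothing more is read from it. Egfl7 and Eng had an r of -0.88, and Kdr and Eng one of -0.79, or -0.92 and -0.84 without line 72. These are descriptions over 6 lines that share 1 fit of the library sizes. The ratio of Eng to Cdh5 per kilobase was 27.7 to 34.8 in HAT1 WT, and 109, 24.8 and 95.6 in HAT1 KO lines 33, 41 and 72. Kdr to Cdh5 ranged from 5.53 to 14.6.

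A wider list of 48 other endothelial genes, also drawn up with earlier results known, held 42 that were matched and 31 that were tested. Sox17, Etv2, Cldn5, Robo4, Mmrn1 and Gpihbp1 had no match and were not analysed here, and Nos3, Adgrl4, Myct1, Sele and Dll4 had under 10 counts in every line. Among those 5 are the endothelial nitric oxide synthase, E-selectin and an arterial Notch ligand. The median log2 fold change of the 31 was -0.03, against 0.0085 over all tested genes, with 16 below 0 and 15 above. By the thresholds of the study 5 were lower, Fli1, Tal1, Hhex, Clec14a and Cd93, beside 4.62% of all tested genes. None was higher, beside 1.5% of all tested genes. Without HAT1 KO line 41 or line 72, 2 were higher, without HAT1 WT line 36, 1 was, and 4 to 5 were lower whichever line was left out.

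Among the endothelial transcription factors 3 of 6 tested were lower by those thresholds, beside 4.62% of all tested genes. Fli1, an ETS factor of endothelium and blood, was 39.6, 38.6 and 35.8 CPM in HAT1 WT and 25.8, 25.9 and 20.6 CPM in HAT1 KO, a log2 fold change of -0.66 (SE 0.11; edgeR adjusted p = 0.077). Tal1, a helix-loop-helix factor of blood and vessel precursors, was 7.12 to 8.46 CPM in HAT1 WT and 2.56 to 4.38 CPM in HAT1 KO, at -1.15 (SE 0.22; adjusted p = 0.102). Hhex, a homeobox factor, was 5.91 to 7.44 CPM and 3.58 to 4.39 CPM, at -0.81 (SE 0.16; adjusted p = 0.104). The lines of the genotypes did not overlap for these 3 genes, but none passed the adjusted threshold of the edgeR fit. With DESeq2 and with voom all 3 passed it, and 5 and 4 genes of the wider list did so in all. Over all genes 871 and 267 passed in those fits. Without line 72 Fli1 was no longer past the 1.5-fold threshold, at -0.54. Gata2 overlapped between genotypes, at 10.6 to 12.9 CPM and 6.38 to 12.4 CPM. Fli1, Tal1, Hhex and Gata2 are also made in blood cells. Sox7 and Erg, which were also tested, overlapped between genotypes, with log2 fold changes of 0.03 (SE 0.44) and 0.68 (SE 1.01).

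Of 15 tested surface and junction genes, 2 were lower by the study's thresholds, beside 4.62% of all tested genes. Cd93, a C-type lectin-like receptor of endothelium that monocytes and macrophages also carry, was 193, 220 and 175 CPM in HAT1 WT and 70.9, 58.5 and 36.8 CPM in HAT1 KO. It fell by 1.82 on the log2 scale (SE 0.24, edgeR adjusted p = 0.048). It was the 1 gene of the 31 to pass the adjusted threshold, beside 0.528% of all tested genes. Its adjusted p ranged from 5.3e-11 with DESeq2 to 0.569 with the lane in the model, and the call was lost on leaving out any line but HAT1 KO line 72, with adjusted p of 0.094 to 0.230. Over the 6 fits that leave out 1 line, its log2 fold change was -2.04 to -1.59. Clec14a, a related lectin of endothelium, was 3.74, 2.53 and 4.79 CPM against 2.13, 1.36 and 2.64 CPM, so its lines overlapped, at -0.85 (SE 0.34; adjusted p = 0.328), and it no longer met the thresholds without HAT1 WT line 36 or 78 or HAT1 KO line 33 or 41. S1pr1, a sphingosine-1-phosphate receptor, stood at 36.2 to 46.4 CPM against 28.6 to 30.5 CPM, short of 1.5-fold at -0.53 (SE 0.11; adjusted p = 0.121). Calcrl, the receptor shared by calcitonin gene-related peptide and adrenomedullin, overlapped.

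None of 10 tested arterial, venous and lymphatic genes met the thresholds in either direction. The most abundant per kilobase in HAT1 WT were Unc5b, a netrin receptor, at 78.7 CPM per kb, Nrp2, a co-receptor for VEGF-C and semaphorins, at 36.1 CPM per kb, and Ephb4, the receptor for ephrin-B2, at 27.5 CPM per kb. All 3 were above Flt1 in these cultures, and which cells carried them was not tested. Other genes of the list were far lower, with Notch4 at 0.185, Prox1 at 0.0884 and Lyve1 at 0.0513 CPM per kb in HAT1 WT. Dll4 had under 10 counts in every line. Nrp2 was 419 to 438 CPM in HAT1 WT, 292 and 287 CPM in HAT1 KO lines 33 and 41, and 637 CPM in line 72. Erg, an ETS factor that marks endothelium and was picked after its values were seen, was 0.627 to 2.48 CPM in HAT1 WT, 0.741 and 0.503 CPM in lines 33 and 41, and 5.82 CPM in line 72, where Flt1 and Tek were lowest.

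**Figure D4:**
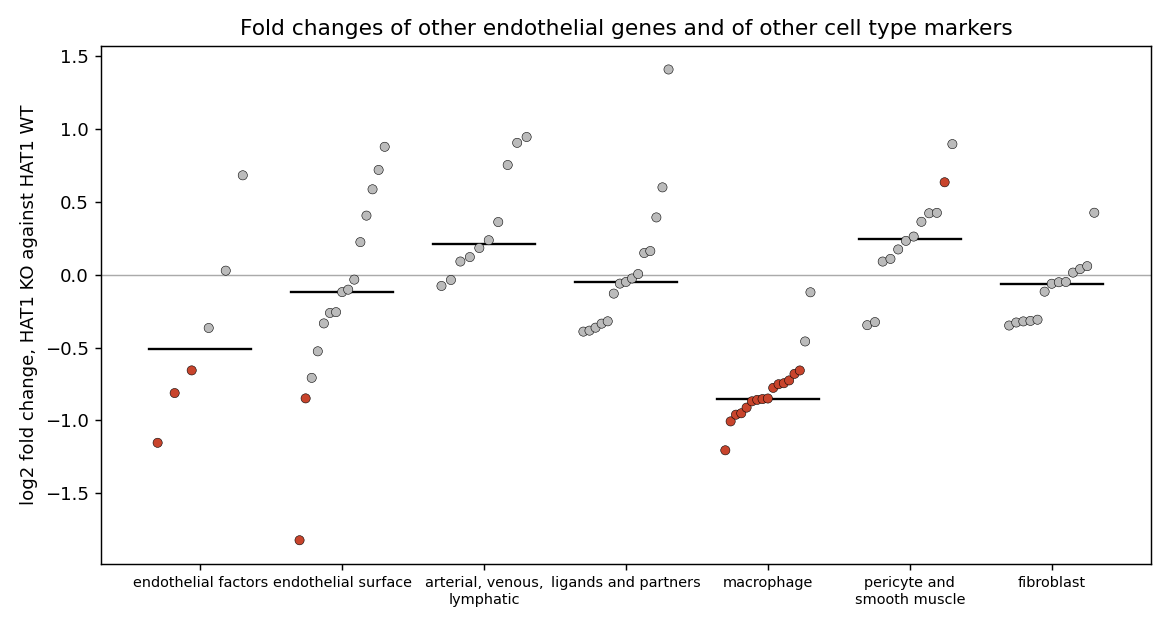
Log2 fold change of HAT1 KO against HAT1 WT for the tested genes of 7 lists, with 1 point per gene ordered within its list, red points for genes past 1.5-fold with an unadjusted p under 0.05, and black bars for medians. The macrophage genes lie below 0 as a list, with a median of -0.85, and the arterial, venous and lymphatic genes have no red point.

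The ligands and partners of these receptors were measured as well, since fibroblasts supply many of them. Of 18 symbols listed, which include Figf as an older name of Vegfd, 16 were matched and 15 tested, Bmp10 being unmatched and Gdf2 having under 10 counts in every line, with a median log2 fold change of -0.05 over the 15. None met the study's thresholds, and Nrp1 and Tgfbr2 had an unadjusted p under 0.05. Nrp1, a VEGF co-receptor, was 430 to 483 CPM in HAT1 WT and 318 to 376 CPM in HAT1 KO, at -0.36 (SE 0.09; edgeR adjusted p = 0.176). Tgfbr2, the type II TGFβ receptor with which endoglin associates, was 311 to 327 CPM and 214 to 292 CPM, at -0.34 (SE 0.12; adjusted p = 0.289). Ctnnb1, whose product β-catenin binds the tail of cadherins, was the most abundant of the list at 134 CPM per kb in HAT1 WT and was 666 to 736 CPM over all 6 lines.

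Vegfa and Angpt1 were picked from that list after their values were seen, as ligands of the marker receptors. Vegfa was 68.3 to 77.7 CPM in HAT1 WT, 77.2 and 77.1 CPM in HAT1 KO lines 33 and 41, and 44.0 CPM in line 72. Angpt1, the activating ligand of Tek, was 0.879 to 2.02 CPM in HAT1 WT, 1.52 and 1.07 CPM in lines 33 and 41, and 8.35 CPM in line 72. Line 72 was thus lowest for Vegfa, Flt1 and Tek and highest for Angpt1.

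Pecam1 is also a gene of blood cells, so markers of those cells are given beside it. All 17 tested of 18 macrophage markers had a negative log2 fold change, and their median was -0.85. By the study's thresholds 15 were lower, beside 4.62% of all tested genes. The count was 9 by an adjusted p under 0.05, beside 0.528% of all tested genes. The summed level of the macrophage markers was 6135 to 6883 CPM in HAT1 WT and 3012 to 3800 CPM in HAT1 KO. Csf1r, the receptor that macrophages need for survival, was 593 ± 22.4 CPM in HAT1 WT and 354 ± 22.1 CPM in HAT1 KO and fell by 0.75 on the log2 scale (SE 0.08; edgeR adjusted p = 0.035). Per kilobase it was 1081-fold above Pecam1 in HAT1 WT. Its adjusted p was 0.094 to 0.230 on leaving out any line but HAT1 KO line 72. The number of macrophage genes lower by the study's thresholds was 14 to 16 whichever line was left out, whereas the count by adjusted p became 6 without line 72 and 0 without any other line. Cd163, a marker of resident macrophages, was the 1 macrophage gene with under 10 counts in every line.

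Set against that sum, Cdh5 and Pecam1 overlapped between genotypes. The sum was itself lower in every HAT1 KO line, so a ratio to it brings any gene with a similar fall into overlap. Nothing is therefore read from these ratios. Cdh5 was 0.0758 to 0.114 CPM per 1000 CPM of macrophage markers in HAT1 WT and 0.0856 to 0.112 in HAT1 KO. Pecam1 was 0.0773 to 0.102 in HAT1 WT and 0.0800, 0.0311 and 0.0516 in HAT1 KO lines 33, 41 and 72. Line 33 lay within the HAT1 WT range and lines 41 and 72 lay below it. For Fli1, Tal1, Hhex and Cd93 all HAT1 KO lines lay below all HAT1 WT lines. This was so for 12.4% of all tested genes. The part of the macrophage markers in the values of Pecam1, Cdh5 and the wider list was not tested.

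Of 7 megakaryocyte and platelet markers, 5 were matched and tested. Pf4, platelet factor 4, which embryonic macrophages also make, was 7.69 to 11.1 CPM in HAT1 WT and 2.46 to 3.75 CPM in HAT1 KO, and fell by 1.65 on the log2 scale (SE 0.22; edgeR adjusted p = 0.048), with adjusted p of 0.060 to 0.230 on leaving out single lines. Ppbp was 0.404 to 0.822 CPM in HAT1 WT, 0.651 and 0.621 CPM in lines 33 and 41, and 23.8 CPM in line 72. Of 9 erythroid genes 3 were matched, with 1.01 to 1.78 CPM in sum in any line. The epithelial markers summed to 1.09 to 2.49 CPM. The 12 pericyte and smooth muscle genes were listed for the cells around vessels, and which cells carried them was not tested. Of these, 10 had a positive log2 fold change. By the study's thresholds 1, Myh11, was higher, beside 1.5% of all tested genes. It stood at 0.63 (SE 0.16, edgeR adjusted p = 0.183), or 0.45 without HAT1 KO line 33. The summed levels were 5341 to 6254 CPM in HAT1 WT and 6603 to 8280 CPM in HAT1 KO. Acta2 alone held 2980 to 3560 CPM and 3831 to 4959 CPM of these. For 4 of 12, Acta2 and Tagln among them, all HAT1 KO lines lay above all HAT1 WT lines, beside 9.59% of all tested genes. The lines overlapped for 8 of 12. None of 13 fibroblast markers met the thresholds. The 12 proliferation genes summed to 534 to 800 CPM in HAT1 WT and 825 to 1115 CPM in HAT1 KO. By the study's thresholds 8 of 12 were higher, beside 1.5% of all tested genes. That count ranged from 1 without HAT1 KO line 33 to 9 without line 72 or HAT1 WT line 47. It was 2 without HAT1 WT line 36 and 3 without HAT1 WT line 78 or HAT1 KO line 41. The parts of these groups in the values of the endothelial genes were not tested.

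The tested genes whose log2 CPM followed Cdh5 most closely over the 6 lines were Ano3 (Pearson r = 0.991), Cwc27 (0.989), Rusc1 (0.983), Nrbf2 (0.983) and Tdrd7 (0.982). For Pecam1 they were Prr32 (0.996), Trim30d (0.996), Ncoa3 (0.990), Sphk2 (0.988) and Myo1g (0.987). None of the 10 is in the endothelial lists. With 6 lines, 48 genes reached an r over 0.95 with Cdh5 and 112 with Pecam1, so the order among them is a description of these libraries.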

How the data were processed

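RNA-seq counts of 6 pMEF lines, 3 per genotype, were used as deposited: whole, unnormalised read counts per gene for 17512 genes, made by the authors from libraries prepared with an unstranded TruSeq kit. The submitters' processing notes name mm10 and edgeR. The aligner and counter are not given in the sources used here. Columns holding the authors' own fold changes and p-values were not used.

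Counts were filtered with filterByExpr, scaled by TMM and fitted with edgeR 4.0.16 (R 4.3.3) by quasi-likelihood with genotype alone, and p-values were adjusted by Benjamini-Hochberg over 14773 genes. Reported SEs are the log2 fold change divided by the square root of F. Gene positions and merged exon lengths came from GENCODE M21. Correlations used log2(CPM + 0.1). The labels number each line but do not say that each is a separate embryo, so p-values measure only the spread between these lines. The study isolated primary MEFs for ATAC-seq from 3 embryos of each genotype, without tying these RNA-seq lines to embryos. Y-linked counts were 13788 and 12841 in HAT1 WT lines 36 and 47 and 231 in HAT1 WT line 78. How much of the spread is technical is not known. With 3 against 3, an exact two-sided permutation test of a single gene could not go below p = 0.1.

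The members and all gene lists were chosen with earlier results of these data known. Genes named besides the members were those of each list past 1.5-fold with p under 0.05 (up to 4 by p), the 3 most abundant per length in HAT1 WT, wider-list genes with no match or under 10 counts in every line, and the 5 closest in pattern to Cdh5 and to Pecam1. Others, named with their values, were chosen after these were seen. These are Vegfa, Angpt1, Erg, Sox7, Notch4, Prox1, Lyve1, Pdgfra, Cd163 and the Y-linked genes. The fit was tested on simulated data. Alternatives were DESeq2 1.42.0, limma 3.58.1 voom weights, other scalings and filters, lane as a term, halved counts and each line left out.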

Additional observations from a re-analysis of the deposited data

How the results depend on the processing

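The number of genes with an adjusted p under 0.05 over all tested genes was 78 and depended on the setting: 871 with the DESeq2 Wald test, 267 with voom and sample quality weights, 46 with no filter, 2 with the lane in the model, and 0 to 73 on leaving out 1 line (0 without HAT1 WT line 36, HAT1 WT line 47 or HAT1 KO line 33, and 73 without HAT1 KO line 72). Median log2 fold changes moved by less than the spread between lines under every alternative run. This held for the endothelial marker genes, the wider list and the ligands and partners. For the marker genes that spread was 0.52, and their median ranged from -0.51 without HAT1 KO line 33 to -0.02 without line 72. The median of the wider list lay on either side of 0, from -0.09 to 0.09. Genes higher at 1.5-fold with p under 0.05 numbered 221 over all genes, 60 with the lane in the model, 299 with DESeq2, 306 with no filter, and from 111 without HAT1 WT line 36 to 339 without HAT1 KO line 41 and 350 without HAT1 KO line 72. The causes of these changes were not tested. Pecam1 kept its direction, at -2.10 to -1.39, and Cdh5 at -0.94 to -0.67. With a mean of at least 50 counts required, Cdh5, Pecam1 and Esam were not tested. Tek, Esam and Egfl7 changed sign between settings, at -0.27 to 0.59, -0.75 to 0.42 and -0.26 to 0.13. No paired analysis was possible because the genotypes share no line numbers. Cdh5, Pecam1, Esam and Emcn had at most 62 counts in any line, and with all counts halved Cdh5 stood at -0.84 and Pecam1 at -1.61. The values without line 72 within lane 6 and between marker genes were chosen after seeing the data.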
